A study of Mus musculus with 12 samples.

Results

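Matricellular proteins are secreted into the extracellular matrix, where they act on cell adhesion and growth factor signalling more than as structural fibres. The 9 genes grouped here under this name were Thbs1, Thbs2, Thbs4, Comp, Postn, Spp1, Sparc, Tnc and Fn1, although Fn1 encodes a matrix scaffold. Of these, 8 had at least 1 probe set annotated to that gene alone, out of 12393 genes so represented on the arrays. Spp1, the gene of osteopontin, had no such probe set in the annotation used and was not analysed here. The 8 genes were covered by 12 probe sets, of which 10, for 7 genes, had a mean signal high enough to be tested. The probe set of Tnc and the dimmer one of Fn1 lay below that limit and are given as values only.

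Expression had been measured in total RNA of mouse heart muscle on 12 Affymetrix arrays, 3 for each of 4 groups: mdx hearts at 10.5 months, control hearts at 10.5 months, mdx hearts at 8 weeks and control hearts at 8 weeks. The mdx mouse carries a mutation in the dystrophin gene Dmd in every tissue and is the common mouse model of Duchenne muscular dystrophy, and the series title calls the controls wild type. The sources used here do not give strain, sex, treatment, the part of the heart or the animal behind each replicate, so that the p-values measure the spread between these samples, which may be technical. Arrays read RNA of whole tissue, in which fewer cells of a type and less RNA per cell cannot be told apart.

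Thrombospondins are calcium-binding glycoproteins. Thrombospondins 1 and 2 form trimers that inhibit the growth of blood vessels and bind the receptors Cd36 and Cd47, and thrombospondin 1 can release TGF-beta from its latent form. Thrombospondin 4 and Comp (cartilage oligomeric matrix protein, also counted as a thrombospondin) form pentamers and are abundant in tendon and cartilage. Periostin (Postn) and tenascin-C (Tnc) are made mainly by activated fibroblasts in injured heart, Sparc binds collagen, and fibronectin (Fn1) is a scaffold on which other matrix proteins assemble.

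The 2 genes with the clearest separation between mdx and control hearts for which a promoter sequence was at hand are shown with Sparc, which did not separate. RefSeq sequences of GRCm38.p6 matched 5 of the 8 genes (7 windows), and the 250 bases before the start site are printed 5′ to 3′ in the direction of transcription. Capitals mark matches on either strand to TATAAA (the core of the TATA box), GGGCGG (the GC box) or CAGACA (the SMAD box). These motifs do not overlap each other in the windows shown.
Thbs4 promoter, chr13:92794819-92795068, minus strand: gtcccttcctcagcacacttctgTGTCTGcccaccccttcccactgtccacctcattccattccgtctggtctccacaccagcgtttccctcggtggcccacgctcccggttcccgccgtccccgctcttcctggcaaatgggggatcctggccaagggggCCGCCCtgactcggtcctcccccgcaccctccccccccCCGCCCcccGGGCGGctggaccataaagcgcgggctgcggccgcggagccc
Postn promoter, chr3:54360857-54361106, plus strand: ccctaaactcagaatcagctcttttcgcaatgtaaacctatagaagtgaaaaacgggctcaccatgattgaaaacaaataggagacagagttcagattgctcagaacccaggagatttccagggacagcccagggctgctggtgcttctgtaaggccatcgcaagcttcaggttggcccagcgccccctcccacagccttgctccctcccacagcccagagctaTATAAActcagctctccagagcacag
Sparc promoter, chr11:55420081-55420330, minus strand: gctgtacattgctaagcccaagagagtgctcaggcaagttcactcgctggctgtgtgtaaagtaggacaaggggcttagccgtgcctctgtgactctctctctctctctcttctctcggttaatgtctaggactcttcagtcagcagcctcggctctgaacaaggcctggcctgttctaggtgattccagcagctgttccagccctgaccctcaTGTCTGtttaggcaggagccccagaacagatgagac

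The Thbs4 window held 3 matches to the GC box and 1 to the SMAD box, and no TATAAA. The Postn window held TATAAA 26 bases before the start and none of the other motifs, and a window at a further RefSeq start of Postn held none of them. Sparc had 1 match to the SMAD box. Of the 32851 promoter windows of this length 12.4% held TATAAA, 32.7% the GC box and 17.1% the SMAD box. The AP-1 motif TGANTCA, present in 6.75% of windows, was in none of the 7. A match is a stretch of letters and does not show that a factor binds there.

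Signals below are the deposited values rescaled to a trimmed mean of 500 on each array. The median deposited signal per array was 532.8 to 665.8, and replicates of a group correlated at 0.948 to 0.982 in log2 signal. On 4 arrays the bright signals reached further (99th percentile of 40770 to 53154, at most 32810 on the others), namely mdx replicate 3 at 10.5 months, mdx replicates 1 and 2 at 8 weeks, and control replicate 2 at 8 weeks. Dmd itself, which checks the labels, ran from 195 to 286 on the mdx arrays, against 796 to 839 on the control arrays, at 10.5 months, and from 159 to 279 on the mdx arrays, against 607 to 780.2 on the control arrays, at 8 weeks. A keyword of the sample records names extraocular muscle, whereas titles and sources name heart. All 6 ventricular myocyte markers were measured (Myl2 at 20056 to 70057), and of 7 fast skeletal muscle markers only Ckm, which heart also expresses, passed the limit.

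Among the 7 tested genes 1 difference passed the test, the rise of Thbs4 with age in mdx hearts. In that comparison 11.4% of all probe sets passed, and 5.45% were called higher. Thbs4, Comp and Postn were higher on each of 3 mdx arrays than on each of 3 control arrays at 10.5 months. Such a separation held for 7.51% of all probe sets. None of the 3 genes passed when adjusted over all probe sets. Thbs1, Thbs2, Sparc and Fn1 passed in no comparison. Differences are of log2(signal + 32), fitted with limma over all 12 arrays and given ± standard error, and a change was called at an adjusted p below 0.05 over 14932 probe sets. Folds on this scale understate the change of dim genes.

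**Figure D1:**
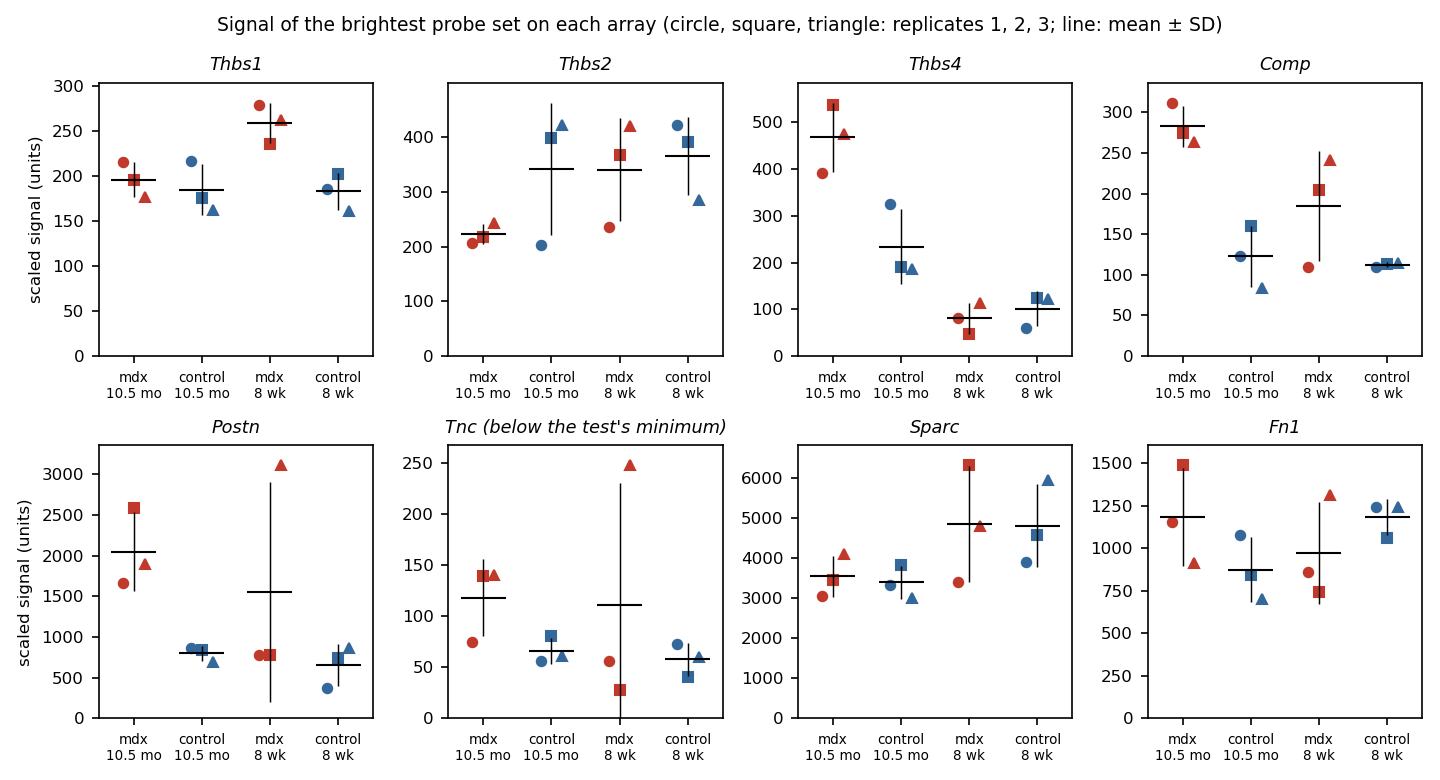
Scaled signal of the brightest probe set of each gene (vertical axis, units of the rescaled arrays, from 0) on each of the 12 arrays, with mdx in red and control in blue and the mean ± SD of 3 arrays as lines (the lower bar of Tnc is clipped at 0). Thbs4 stands at 391 to 537 in mdx hearts at 10.5 months, above each array of the other groups, and Postn and Tnc have 1 high array among mdx hearts at 8 weeks.

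Thbs4 is linked in mouse heart to the response to load, where it also acts in the endoplasmic reticulum through Atf6. Its signal was 391, 537 and 474 in mdx hearts at 10.5 months, against 82.3, 46.5 and 112 in mdx hearts at 8 weeks. The groups lay far apart, with the lowest older array more than 3 times the highest young one. Thbs4 rose 4.55-fold with age in mdx hearts (log2 2.19 ± 0.27, 95% interval 1.59 to 2.78, adjusted p = 0.00107 by limma). It was the single gene called among the 7 tested, 1 of 7 against 11.4% of all probe sets called in that comparison in either direction and 5.45% called higher. It stayed called in each of 21 alternatives, with values of 1.95 to 2.46 and adjusted p of 0.000675 to 0.00814.

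In control hearts Thbs4 had signals of 326, 189.8 and 185 at 10.5 months, against 59.4, 124 and 121 at 8 weeks. These groups did not overlap either, as for 12.2% of all probe sets that were higher at 10.5 months in control hearts. The difference was 0.99 ± 0.27 and missed the threshold (adjusted p = 0.191). Set side by side by genotype, the mdx arrays at 10.5 months all lay above the control arrays of that age, at 468 ± 73.3 and 234 ± 79.8 (SD, n = 3 each), a difference of 0.94 ± 0.27 (adjusted p = 0.475). At 8 weeks Thbs4 was at 80.4 ± 33.03 in mdx hearts and 101.7 ± 36.7 in control hearts (-0.25 ± 0.27, adjusted p = 0.674), with overlapping arrays. The test of whether the mdx difference itself changed with age gave 1.19 ± 0.39, with an interval of 0.36 to 2.03 and an adjusted p of 0.240. In order of mean level the groups ran mdx at 10.5 months, control at 10.5 months, control at 8 weeks and mdx at 8 weeks, and the last 2 did not differ beyond their spread.

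Comp, the other pentameric thrombospondin, gave signals of 311, 275 and 263 in mdx hearts at 10.5 months, against 124, 160.2 and 84.2 in control hearts. The mdx arrays were close to each other and above all control arrays. The difference was 1.05 ± 0.23 (2.08-fold, interval 0.55 to 1.55, adjusted p = 0.279). At 8 weeks the signals were 109.7, 205 and 241 in mdx hearts and 109.7, 113 and 115 in control hearts, so that mdx replicate 1 sat among the controls while the other mdx arrays stood above them (0.53 ± 0.23, adjusted p = 0.252). Mdx replicate 1 had the widest signal range and the highest ratio of Gapdh control probe sets from the 2 ends of the transcript. Without that array the 8-week difference was 0.81 (adjusted p = 0.0623). Without mdx replicate 3, where Comp was highest at 8 weeks (241), the 8-week difference was 0.34.

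Averaged over both ages, the mdx difference of Comp was 0.79 ± 0.16 (adjusted p = 0.0841). It passed under 2 of 20 alternatives, at 0.93 without mdx replicate 1 at 8 weeks (adjusted p = 0.0164) and at 0.93 with the signal range of the arrays as a covariate (adjusted p = 0.0472). Without mdx replicate 3 at 8 weeks the average was 0.70. The mdx difference was not shown to change with age (0.52 ± 0.33, adjusted p = 0.556). Age gave 0.59 ± 0.23 in mdx hearts, whose older arrays all lay above the younger ones (adjusted p = 0.112; 0.31 without mdx replicate 1 at 8 weeks, adjusted p = 0.342), and 0.07 ± 0.23 in control hearts (interval -0.43 to 0.57, adjusted p = 0.938). By mean level mdx hearts at 10.5 months came first and mdx hearts at 8 weeks second, followed by both control groups, which did not differ beyond their spread.

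**Figure D2:**
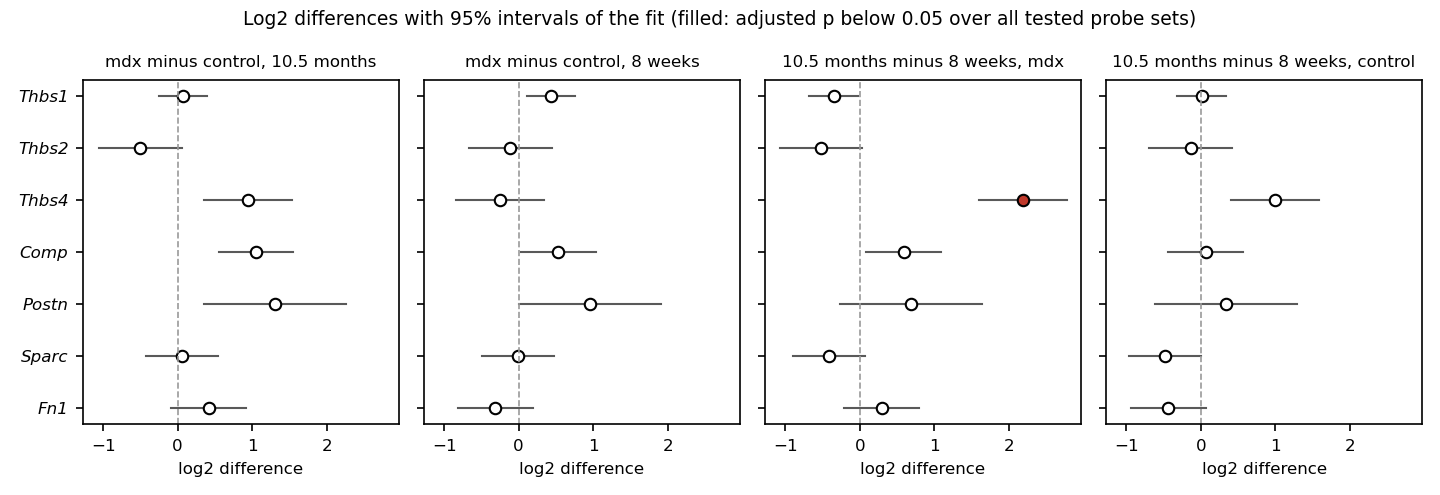
Log2 differences of the 7 tested genes (horizontal axis) with their 95% intervals in 4 comparisons, brightest probe set of each gene. The filled point is Thbs4 with age in mdx hearts at 2.19; Thbs4, Comp and Postn lie near 1 in mdx against control at 10.5 months, and the intervals of Sparc include 0 in all 4 panels.

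Postn, the classical product of activated cardiac fibroblasts, had signals of 1664, 2588 and 1896 in mdx hearts at 10.5 months, against 861, 844 and 687 in control hearts. The groups were well apart, and the difference of 1.31 ± 0.44 was the largest by size of the 7 tested genes in that comparison (2.48-fold, interval 0.36 to 2.26, adjusted p = 0.594). Its standard error was also the largest of the 7, since the fit shares the spread with the 8-week arrays. There Postn was at 774, 776 and 3106 in mdx hearts and 372, 736 and 868 in control hearts. One array, mdx replicate 3, held the high value, and the other mdx arrays lay within the range of the controls.

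The 8-week difference of Postn was 0.96 ± 0.44 (adjusted p = 0.278), and 0.30 without mdx replicate 3 (adjusted p = 0.607). The rise with age in mdx hearts, 0.69 ± 0.44 with all arrays (adjusted p = 0.315), became 1.34 and passed without that array (adjusted p = 0.0154). In control hearts age gave 0.34 ± 0.44 (adjusted p = 0.804), and the mean mdx difference over both ages was 1.13 ± 0.31 (adjusted p = 0.149), or 0.81 without mdx replicate 3 at 8 weeks (adjusted p = 0.104). The mdx differences at the 2 ages were not shown to differ (0.35 ± 0.62, adjusted p = 0.871), and without that array their gap was 1.01 (adjusted p = 0.291).

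Tnc is scarce in healthy adult heart and rises after injury. It gave 74.7, 139 and 141 in mdx hearts and 56.2, 80.3 and 61.0 in control hearts at 10.5 months, with 1 mdx array within the control range. At 8 weeks it gave 56.5, 28.2 and 248 in mdx hearts and 72.5, 40.4 and 60.1 in control hearts. The high array was again mdx replicate 3, the same as for Postn. Its mean signal of 88.1 was under the limit of 100, and with no filter the differences were 0.59 ± 0.44 at 10.5 months (adjusted p = 0.903) and 0.37 ± 0.44 at 8 weeks (adjusted p = 0.719).

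On mdx replicate 3 at 8 weeks, the array with the highest Postn and Tnc, the summed signal of the 10 fibroblast markers was 32909, below the other mdx arrays of that age (43015 and 40115). That array also stood apart as a whole, with the highest median of deposited signals (665.8, against 532.8 to 600.3 on the others), the lowest 99th percentile (27563) and the lowest sum of ventricular myocyte markers (97115). The summed tendon and cartilage markers, most of them dim, were at 1170.8, against 540 to 836 on the remaining 11 arrays. The summed bone markers were at 1040.5, against 188 to 647 elsewhere, mainly through Sp7, an osteoblast transcription factor. The tendon genes Scx, Tnmd and Chad, and the bone genes Ibsp, Dmp1 and Phex, were below the limit. Comp was also higher there than on the other 8-week arrays. The part of these cells, and of the array as a whole, in the Postn, Tnc and Comp signals was not tested.

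Thbs1 had 2 tested probe sets that disagreed at 8 weeks and with age. On the brighter one the signals at 8 weeks were 278, 235 and 262 in mdx hearts and 185, 202 and 161 in control hearts, with no overlap, and a difference of 0.44 ± 0.15 (adjusted p = 0.151). On the other the signals were 133, 177 and 185 in mdx hearts and 174, 129 and 203 in control hearts, fully overlapping (-0.02 ± 0.19, adjusted p = 0.976). At 10.5 months the brighter probe set gave 196 ± 19.8 in mdx hearts and 185 ± 28.3 in control hearts (0.08 ± 0.15, adjusted p = 0.935), and the other 0.28 ± 0.19 (adjusted p = 0.785). With age in mdx hearts the brighter one was at -0.35 ± 0.15 (adjusted p = 0.135) and the other at 0.25 ± 0.19 (adjusted p = 0.402), so their directions differed. Over both ages the mdx difference was above 0 on both, at 0.26 ± 0.11 and 0.13 ± 0.13 (adjusted p = 0.312 and 0.682).

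Thbs2 is made by fibroblasts and limits matrix damage in mouse heart under load. Its brighter probe set had signals of 207, 217 and 243 in mdx hearts at 10.5 months and 203, 399 and 422 in control hearts. The mdx arrays lay together and low, but control replicate 1 was as low. The difference was -0.50 ± 0.26 (adjusted p = 0.701), and -0.80 without control replicate 1 (adjusted p = 0.756). The other probe set gave 263, 247 and 217 in mdx hearts and 268, 268 and 443 in control hearts, without overlap (-0.36 ± 0.22, adjusted p = 0.748). At 8 weeks both were near 0 (-0.11 ± 0.26 and -0.05 ± 0.22, adjusted p = 0.864 and 0.927). With age in mdx hearts they parted, at -0.52 ± 0.26 and 0.06 ± 0.22 (adjusted p = 0.193 and 0.885).

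**Figure D3:**
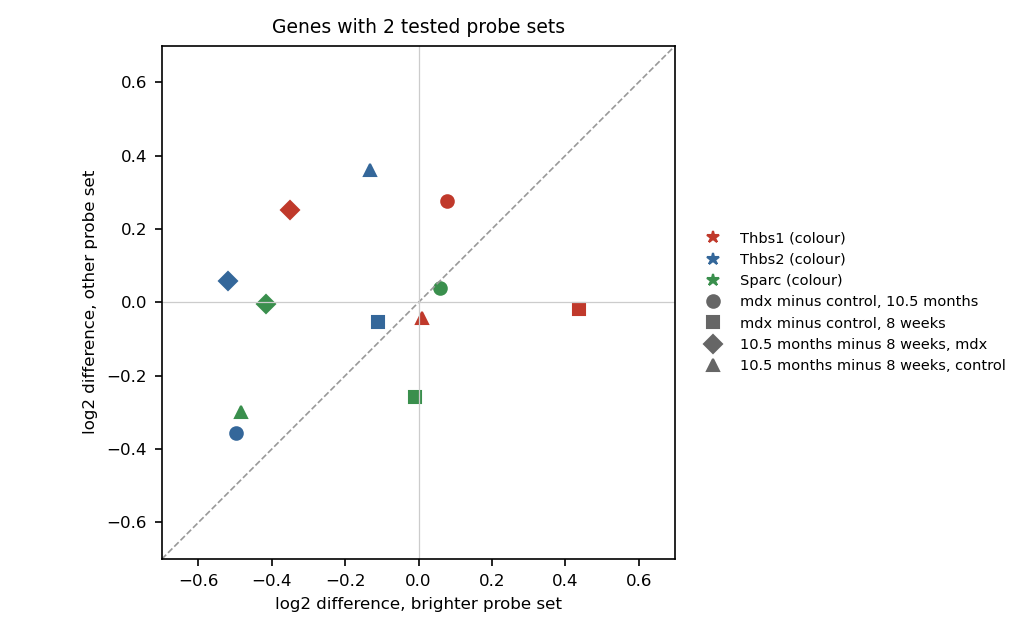
Log2 differences of the 3 genes with 2 tested probe sets, the brighter one on the horizontal axis and the other on the vertical axis, in 4 comparisons. Points off the dashed line of equal values show disagreement, as for Thbs1 in mdx against control hearts at 8 weeks (0.44 and -0.02), while Thbs2 at 10.5 months lies near it (-0.50 and -0.36).

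Sparc, which guides collagen assembly, was bright on both of its probe sets and did not separate the genotypes. The brighter one gave 3062, 3453 and 4097 in mdx hearts and 3326, 3833 and 3006 in control hearts at 10.5 months (0.06 ± 0.22, interval -0.43 to 0.54, adjusted p = 0.968). At 8 weeks it gave 3407, 6307 and 4808 in mdx hearts and 3908, 4561 and 5932 in control hearts (-0.01 ± 0.22, interval -0.50 to 0.47, adjusted p = 0.988). With age it was lower at 10.5 months on every control array (-0.48 ± 0.22, adjusted p = 0.411), as were 10.5% of all probe sets, and at -0.41 ± 0.22 in mdx hearts (adjusted p = 0.231). The other probe set was at -0.30 ± 0.21 with age in control hearts and 0.00 ± 0.21 in mdx hearts (adjusted p = 0.606 and 0.993).

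Fn1, the fibronectin gene, had signals of 1155, 1487 and 913 in mdx hearts and 1079.8, 844 and 699.99 in control hearts at 10.5 months, overlapping, with a difference of 0.42 ± 0.23 (adjusted p = 0.717). At 8 weeks it had 860.4, 742 and 1312 in mdx hearts and 1244, 1059 and 1242 in control hearts (-0.31 ± 0.23, adjusted p = 0.523). The change of the mdx difference between ages was 0.73 ± 0.33 (interval 0.02 to 1.44, adjusted p = 0.401). The dimmer probe set averaged 42.9, with 7.36 to 117 over the arrays, and was above 100 on 1 array.

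Read together, the 7 tested genes are counted below by their brightest probe set. At 10.5 months 3 of the 7 were higher on every mdx array than on every control array, against 7.51% of all probe sets. By this count 0 of 7 were lower on every mdx array, against 10.6%, although the other probe set of Thbs2 was lower without overlap. None of the 7 passed, where 0.0469% of probe sets did, and 3 had an unadjusted p below 0.05, against 7.37%. The 7 genes had a median difference of 0.42, with 6 positive, and all probe sets had a median of -0.03, with 44.5% positive. At 8 weeks 1 of 7 (Thbs1, on its brighter probe set) was higher without overlap, against 9.51%, and 0 of 7 were lower, against 10.1%. None passed where 2.3% did, and 3 had an unadjusted p below 0.05, against 17.8%. The median was -0.01, with 3 positive, and that of all probe sets was -0.01.

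Averaged over both ages none of the 7 passed, where 0.201% of probe sets did, and 3 had an unadjusted p below 0.05, against 13.6%. For the change of the mdx difference with age none passed, where 0.154% did, and 2, Thbs4 and Fn1, had an unadjusted p below 0.05, against 12.1%. With age in control hearts none passed, where 0.147% did, and Thbs4 alone had an unadjusted p below 0.05, against 12.2%. With age in mdx hearts 2 of 7, Thbs4 and Comp, were higher without overlap, against 14.7%, and 1, Thbs1 on its brighter probe set, was lower, against 15.5%; 3 had an unadjusted p below 0.05, against 30.2%, and the median was 0.29, with 4 positive. These comparisons share arrays with each other.

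**Figure D4:**
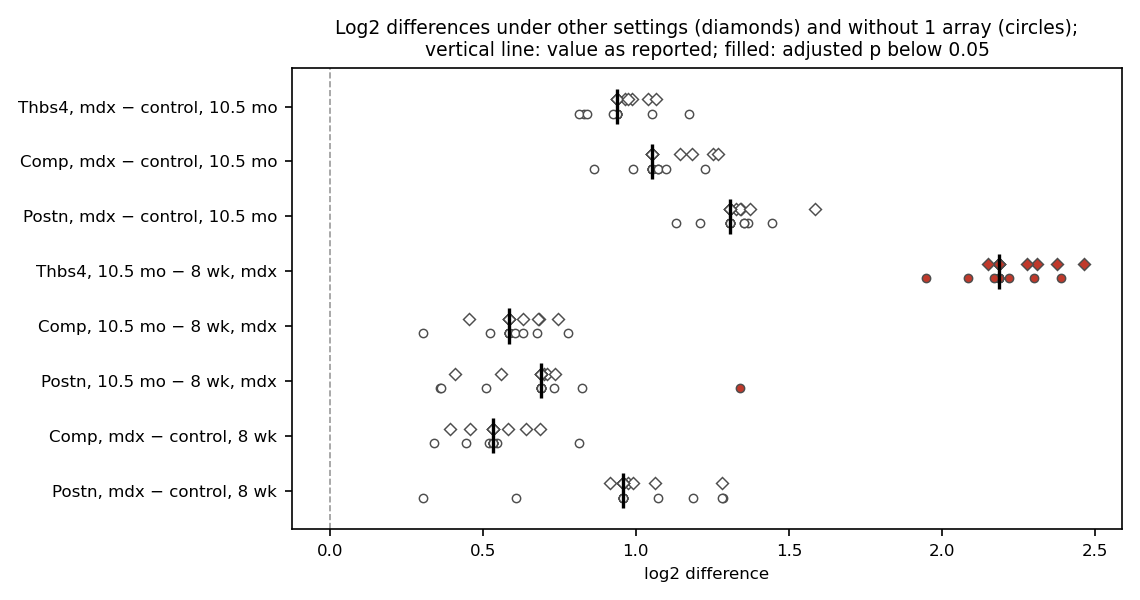
Log2 differences (horizontal axis) of Thbs4, Comp and Postn as reported (vertical lines), under the other processing settings (diamonds) and with 1 array left out (circles), filled where the adjusted p was below 0.05. All values of Thbs4 with age in mdx hearts are filled, and the single filled circle of Postn at 1.34 leaves out mdx replicate 3 at 8 weeks.

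Among the 8 genes, log2 signals over the 12 arrays were most alike for Comp and Postn (r = 0.81, rho = 0.83) and for Postn and Tnc (r = 0.79, rho = 0.63). Thbs2 and Thbs4 were most opposed (r = -0.65, rho = -0.50). These correlations are descriptions over 12 arrays that fall into 4 groups and share the group differences given above. The pair of Postn and Tnc also shares 1 array with high values.

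Among 8845 other genes, those most like Thbs4 over the 12 arrays were the tetraspanin gene Tspan17, Cibar1 and Igfbp6, which encodes a binding protein of insulin-like growth factor 2 (r = 0.931, 0.93 and 0.93). Igfbp6 was at 924 ± 176 in mdx and 574 ± 33.5 in control hearts at 10.5 months, and at 293 ± 66.9 in mdx and 309.7 ± 44.1 in control hearts at 8 weeks (SD, n = 3). That is the same order of groups as for Thbs4. Comp was most like Ccn2, a growth factor of the matricellular CCN family (r = 0.872), followed by Sfrp2, a secreted Wnt modulator (0.853), and Pi16 (0.836). Sfrp2 was also the gene most like Postn (0.919), ahead of the heparin-binding growth factor gene Ptn (0.91) and the collagen gene Col5a2 (0.863). Sfrp2 gave 380.4 ± 50.6 in mdx and 172 ± 45.5 in control hearts at 10.5 months, and 237 ± 128 in mdx and 151 ± 60.1 in control hearts at 8 weeks.

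The remaining tested genes had neighbours of mixed kind. Thbs1 was most like Snx1, Hgh1 and Ice2 (r = 0.901, 0.888 and 0.883), and Thbs2 most like Ifrd2, Fkbp15 and Mark4 (0.847, 0.843 and 0.834). Sparc was most like Dusp8, Smco4 and Smc2 (0.914, 0.863 and 0.86), and Fn1 most like Rars, Psmc4 and Msantd3 (0.851, 0.808 and 0.802). Each is among the highest of 8845 correlations searched and is given as a description.

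Of 29 further matricellular genes 19 were tested. The 19 include Tro, which was not listed and was matched through a synonym in place of the listed tenascin gene Tnn. It counts in the numbers and medians of this list and was called in none of the 6 comparisons. With age in mdx hearts 3 were called higher and 1 lower, 4 of 19 against 11.4% of all probe sets called in either direction. The other tested CCN genes, Ccn1 and Ccn3, were called in none of the 6 comparisons. Ccn5, of the CCN family, rose by 1.13 ± 0.18 (adjusted p = 0.00327), to 459 ± 40.0 at 10.5 months, against 194 ± 36.2 at 8 weeks. Ccn2 rose by 0.81 ± 0.18 (adjusted p = 0.0161) and the small proteoglycan gene Ogn by 0.54 ± 0.16 (adjusted p = 0.0457), while Spock2, which encodes a testican proteoglycan, fell by 0.88 ± 0.24 (adjusted p = 0.0312). The median of the list was 0.33, with 15 of 19 positive, beside 0.00 for all probe sets. In control hearts none was called with age, with a median of 0.24 and Matn2, a matrilin, nearest (0.91 ± 0.20, adjusted p = 0.101).

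Between genotypes Ccn2 was the single matricellular gene beyond the 8 to pass, at 10.5 months (1.38 ± 0.18, adjusted p = 0.0121), at 8 weeks (0.83 ± 0.18, adjusted p = 0.0392) and over both ages (1.11 ± 0.13, adjusted p = 0.00426), 1 of 19 each time against 0.0469%, 2.3% and 0.201% of all probe sets. The list had a median of 0.23 at 10.5 months (13 of 19 positive) and 0.04 at 8 weeks (10 of 19 positive). Ccn5 had the smallest p for a change of the mdx difference with age (0.65 ± 0.25, adjusted p = 0.325).

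Of 24 listed receptors of these proteins 20 were tested, and the integrin gene Itga3 was the only one called, higher in mdx hearts at 8 weeks (0.68 ± 0.16, adjusted p = 0.0490) and lower with age in mdx hearts (-0.69 ± 0.16, adjusted p = 0.0190). That is 1 of 20 in each, against 2.3% and 11.4% of all probe sets. Itga3 also had the smallest p of the list for the change of the mdx difference with age (-0.95 ± 0.23, adjusted p = 0.140). Its signal was 278 ± 62.7 in mdx and 339 ± 39.9 in control hearts at 10.5 months, and 465 ± 39.0 in mdx and 277 ± 14.9 in control hearts at 8 weeks. The thrombospondin receptor genes Cd36 and Cd47 were at 0.09 ± 0.25 and 0.13 ± 0.17 at 10.5 months, and at 0.02 ± 0.25 and 0.09 ± 0.17 at 8 weeks (adjusted p of 0.828 to 0.984). Cacna2d1, the calcium channel subunit that binds thrombospondins, was at -0.43 ± 0.22 at 10.5 months (adjusted p = 0.695). The Vldl receptor gene Vldlr came nearest between genotypes at 10.5 months (-0.40 ± 0.18, adjusted p = 0.666) and with age in control hearts (0.63 ± 0.18, adjusted p = 0.200), and the endothelial phosphatase gene Ptprb over both ages (-0.41 ± 0.16, adjusted p = 0.283). The medians lay between -0.01 and 0.06 in all 6 comparisons.

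Of the 24 listed matrix partners and assembly enzymes, Loxl2 was represented by Loxl3, which was not listed and was matched through a synonym. All 24 genes so obtained were tested. The counts and medians include Loxl3, which was called in no comparison. The proteoglycan gene Lum rose by 1.17 ± 0.19 with age in mdx hearts (adjusted p = 0.00432), which was the single call of the list in any comparison, 1 of 24 where 11.4% of all probe sets were called. Between genotypes the medians were 0.13 at 10.5 months (20 of 24 positive) and 0.14 at 8 weeks (18 of 24 positive). The smallest p were those of Lum at 10.5 months (0.78 ± 0.19, adjusted p = 0.367), the membrane protease gene Mmp14 at 8 weeks (0.76 ± 0.23, adjusted p = 0.109) and Col12a1, a collagen that sits on other fibrils, over both ages (1.18 ± 0.26, adjusted p = 0.100). With age in control hearts the aggrecanase gene Adamts4 came nearest (-1.33 ± 0.31, adjusted p = 0.118), and Lum for the change of the mdx difference (0.76 ± 0.27, adjusted p = 0.290).

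Of 22 listed upstream regulators 17 were tested, and the transcription factor gene Runx1 fell by 0.99 ± 0.24 with age in mdx hearts (adjusted p = 0.0206), to 199.9 ± 46.7 at 10.5 months, against 431 ± 115 at 8 weeks. It was 1 of 17 called, against 11.4%. Between genotypes the medians were -0.14 at 10.5 months (4 of 17 positive) and -0.17 at 8 weeks (7 of 17 positive). Tgfb2 was at 0.87 ± 0.22 at 10.5 months (adjusted p = 0.367) and 0.67 ± 0.16 over both ages (adjusted p = 0.105), and Tgfb1 at -0.53 ± 0.16 at 8 weeks (adjusted p = 0.110). Atf6 was at -0.22 ± 0.16 at 10.5 months, 0.02 ± 0.16 at 8 weeks and 0.00 ± 0.16 with age in mdx hearts (adjusted p = 0.802, 0.974 and 0.988). Tgfbr1 had the smallest p with age in control hearts (0.47 ± 0.16, adjusted p = 0.273), and Tgfb1 for the change of the mdx difference (0.31 ± 0.23, adjusted p = 0.616).

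**Figure D5:**
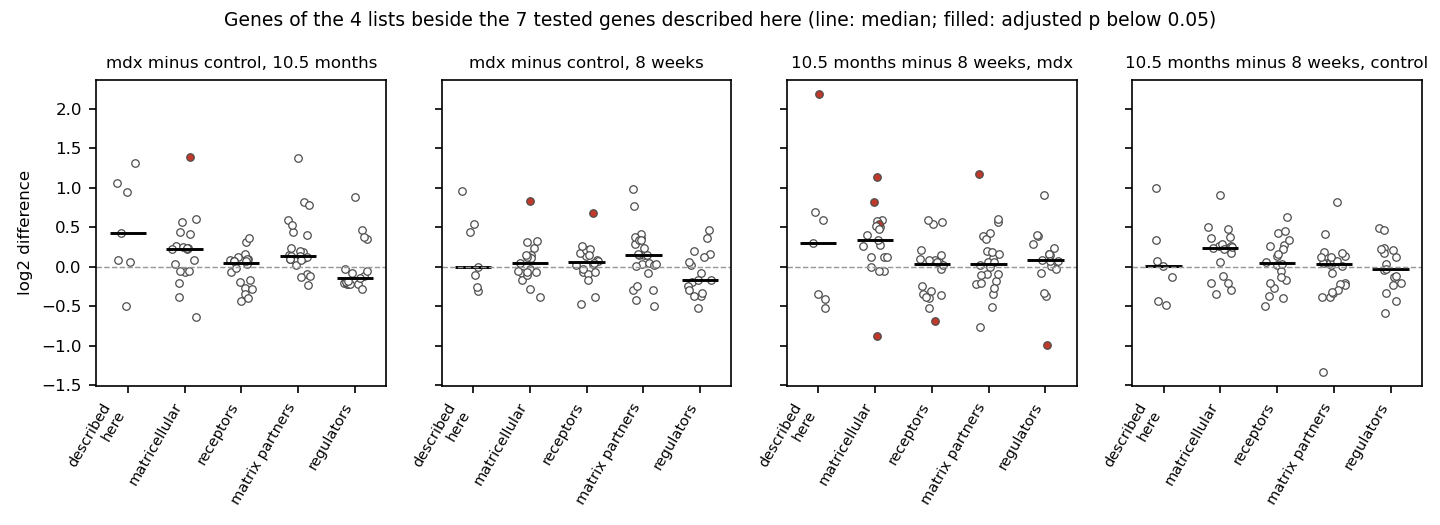
Log2 differences (vertical axis) of the 7 tested genes and of the genes of 4 lists in 4 comparisons, with medians as lines and called genes filled. Thbs4 at 2.19 is the highest point with age in mdx hearts, where Ccn5, Ccn2, Ogn and Lum are also called higher.

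Summed markers of fibroblasts, a main source of these proteins in heart, separated the groups at 10.5 months as Thbs4, Comp and Postn did. Of single probe sets 7.51% did so in this direction. Of the 10 differences 9 were above 0, with a median of 0.21 and 0 called. They were uneven, with Lum at 3310 ± 677 in mdx and 1889 ± 218 in control hearts. Tcf21 was at 524 ± 77.0 in mdx and 491 ± 72.0 in control hearts, and Pdgfra at 526 ± 78.5 and 533 ± 92.2. The summed signal of all 10 markers was 32981 to 40459 in mdx hearts and 28955 to 31076 in control hearts at 10.5 months, and 32909 to 43015 in mdx and 25928 to 33126 in control hearts at 8 weeks. At 8 weeks 10 of 10 differences were above 0, with a median of 0.30 and 0 called. Thbs4 was at -0.25, Comp at 0.53 and Postn at 0.96 at that age. With age in mdx hearts 3 of the 10, Lum, Dpt and Mfap5, were called higher, as Thbs4 was, where 5.45% of all probe sets were. The list as a whole did not follow them: 6 of 10 differences were above 0, with a median of 0.16. The summed signals of the 2 ages overlapped. The part of fibroblasts in the result was not tested.

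The 14 macrophage and monocyte markers summed to 14724 to 23721 in mdx and 12386 to 17193 in control hearts at 10.5 months, with 13 of 14 differences above 0 and 0 called. The 6 endothelial markers were all lower in mean in mdx hearts at both ages, with medians of -0.22 at 10.5 months and -0.12 at 8 weeks and 0 called. Of 10 annotated tendon and cartilage markers 3 passed the limit, and all 10 summed to 540 to 762 in mdx and 634 to 752 in control hearts at 10.5 months. The 4 annotated valve markers summed to 700.1 to 1368 in mdx and 1255 to 1423 in control hearts. The 5 annotated platelet markers (platelets carry thrombospondin 1) summed to 2438 to 2796 in mdx and 2124 to 2313 in control hearts at 10.5 months. At 8 weeks they summed to 1949 to 2156 in mdx and 2173 to 2549 in control hearts, with no overlap at either age. Of single probe sets, 7.51% were higher in mdx hearts without overlap at 10.5 months and 10.1% lower at 8 weeks. Of 4 tested platelet markers, 3 differences were above 0 at 10.5 months and 1 at 8 weeks, with 0 called. Pf4, the brightest, was at 1310 ± 118 in mdx and 1344 ± 192 in control hearts at 8 weeks. Gp1bb was called lower with age in mdx hearts, 1 of 4 against 11.4% of all probe sets. Smooth muscle markers summed to 15498 to 16504 in mdx and 13240 to 14746 in control hearts at 10.5 months without overlap, mainly through Acta2 (4706 ± 300.4 in mdx and 3007 ± 187 in control hearts). The others did not follow it as a list: 3 of 6 tested differences were above 0, with a median of 0.01, and Myh11 was at 114 ± 33.6 in mdx and 198 ± 24.8 in control hearts. At 8 weeks Acta2 ran the other way, at 3876 ± 419 in mdx and 6775 ± 714 in control hearts. It was called lower there, 1 of 6 against 2.3% of all probe sets. Acta2 was also called above 0 for the change of the mdx difference, where 0.154% of all probe sets were called in either direction. With age in control hearts it was called lower, where 0.147% were called. The part of these cells in the results was not tested.

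The 6 atrial markers summed to 11938 to 18304 in mdx hearts and 5057 to 23272 in control hearts at 10.5 months, and to 12034 to 13125 in mdx hearts and 4509 to 6509 in control hearts at 8 weeks. Nppa made up most of these sums and ran opposite to the other markers at 10.5 months, where 1 of 6 differences was above 0 and the median was -1.27. Myl7 was at 235 ± 73.2 in mdx and 1967 ± 1725 in control hearts, Myl4 at 430 ± 199 in mdx and 2138 ± 1758 in control hearts, and Sln at 43.0 ± 42.7 in mdx and 1157 ± 1118 in control hearts. At 8 weeks all 6 were higher in mean in mdx hearts, with a median of 0.74, and 0 were called at either age. The mean log2 signal of the atrial markers, Nppa included, was also used as a covariate. The 10.5-month differences were then 1.065 for Thbs4 and 1.27 for Comp, neither called, and Thbs4 with age in mdx hearts kept its call. The part of atrial tissue in the results was not tested.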

How the data were processed

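The authors deposited 1 intensity value for each of 22690 probe sets on each array, on a linear scale. They had already scaled the arrays: after leaving off 2% at either end, the mean was 1500.6 to 1500.9 on all of them. The labels name only the manufacturer's usual protocol, and the summary software and detection calls are not given in the sources used here. In the platform annotation 20393 probe sets carried a single gene, 691 more than 1 and 1606 no gene, and 20364 could be found by gene identifier in RefSeq.

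Arrays were rescaled to a trimmed mean of 500, 64 control probe sets were left out, and the 14932 probe sets with a mean of at least 100 were tested on log2(signal + 32). With limma 3.58.1 in R 4.3.3 a mean per group was fitted to all 12 arrays (8 residual and 5.2 prior degrees of freedom), giving 6 comparisons, with Benjamini-Hochberg adjustment over all tested probe sets. The procedure was tested on simulated data. Replicates of mdx and control hearts had a median SD of 0.193 and 0.147 (log2) at 10.5 months and 0.250 and 0.202 at 8 weeks, and the number of arrays limits the precision.

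Each gene is represented by its brightest probe set. All 8 measured genes are named with all their probe sets; from each list up to 4 called genes per comparison are named, or else the one with the smallest p, and for each tested gene the 3 genes most alike in log2 signal. Dmd is given as a check of the labels. Cd36, Cd47, Cacna2d1 and Atf6 were named beyond this rule, for their known roles. The genes, lists and tests were chosen with earlier results of these data known.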

Additional observations from a re-analysis of the deposited data

How the results depend on the processing

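Thbs4 with age in mdx hearts kept its direction and its call under all 21 alternatives. Under some alternatives a value could not change, as when the array left out was in neither group compared. Only its standard error and adjusted p could then move. Such values are among the 868 below. Of 868 values of 42 gene differences under the alternatives, 850 kept their call or stayed within 1 standard error of the reported value, 15 moved further without a call, 3 newly passed (Comp over both ages under 2 alternatives and Postn with age in mdx hearts under 1) and 0 lost a call or turned round with one. Counts of called probe sets moved more. With only the arrays compared they were 23 (343 as reported) for mdx against control at 8 weeks, 7 (22) with age in control hearts and 565 (1706) with age in mdx hearts; this setting has no value for the mean over ages and the change of the mdx difference. With the signal range of the arrays as a covariate they were 35 (23) for the change of the mdx difference and 36 (22) with age in control hearts, and 1 of the 7 genes, Comp, passed over both ages. With the atrial markers as a covariate they were 121 at 8 weeks, 3 for the change of the mdx difference and 12 with age in control hearts. Leaving out 1 array gave 1 to 12 (7) at 10.5 months, 42 to 308 at 8 weeks, 12 to 60 (30) over both ages, 0 to 31 for the change of the mdx difference, 7 to 35 with age in control hearts and 598 to 1883 with age in mdx hearts; of the 7 genes it left 0 to 1 called over both ages and 1 to 2 with age in mdx hearts. Quantile normalization moved the share of higher calls for the change of the mdx difference to 48.3%, against 34.8%.

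Replicate numbers recur in all groups. Same-numbered arrays of groups of the same age or genotype deviated from their group means with correlations of -0.13 to 0.13. With means of 3 arrays such values cannot show whether same-numbered arrays shared a litter, day or batch. With the replicate block 3 probe sets (7 as reported) were called at 10.5 months, 176 (343) at 8 weeks and 10 (23) for the change of the mdx difference. Thbs4 with age in mdx hearts stayed called at 2.19. Groups of 3 arrays limit what could be called, and signals near 100, as for Tnc and for Thbs4 at 8 weeks, depend on the added 32.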
